A study of Mus musculus with 9 samples.

Results

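The sham-operated hippocampus served as the baseline of a mouse study of neuropathic pain, and its transcript levels are described here across all genes of the table. The members were the 3 libraries labelled Sham, out of 9 libraries in 3 groups, and all 57010 genes listed for them. All mice carried the C57BL/6J genotype. In the Sham group the L5 spinal nerve was exposed but not tied, and solvent was given after surgery. The other groups, ligated mice given solvent and ligated mice given cannabidiol, were not used. The labels give no age or sex, and they do not say whether each library came from a separate animal, so the spread between libraries may be partly technical. No test between groups was made, and every value after a ± sign is a standard deviation over the 3 libraries (n = 3).

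The hippocampus is a cortical fold that is needed for forming memories of places and events and that also takes part in mood and in the response to stress. Signals pass from the granule cells of the dentate gyrus to the pyramidal neurons of CA3 and on to those of CA1, all of which release glutamate, while local interneurons release GABA. Astrocytes clear both transmitters, oligodendrocytes wrap the axons in myelin, and microglia survey the tissue. A bulk library mixes the RNA of all of these cells, so that fewer cells of a type and less RNA per cell cannot be told apart.

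The libraries held 19724396, 20470473 and 19547448 expected counts after rounding, in the order Sham 1, Sham 2 and Sham 3, which is the order of every triplet of values below. Levels in CPM (counts per 1000000) were scaled by TMM over the 3 libraries and serve to compare one gene between libraries. Levels in TPM (transcripts per 1000000), in which counts were divided by transcript length, serve to compare genes with one another. In each of the 3 pairs the counts differed by more than sampling noise. Pearson correlations of log levels across the detected genes were 0.986 for Sham 1 and Sham 2, 0.982 for Sham 1 and Sham 3, and 0.980 for Sham 2 and Sham 3. All 3 libraries expressed the Y-linked genes Ddx3y at 33.4, 38.0 and 48.4 CPM and Eif2s3y at 36.4, 45.9 and 42.9 CPM, while Xist, the RNA that silences one X chromosome in female cells, had 4, 9 and 7 counts.

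Markers of the hippocampal cell classes were present in every library, and some markers of other tissue set single libraries apart. All 10 dentate granule cell markers were detected, that is, at 1 CPM or more in each library, and their summed level was 619, 801 and 512 CPM. Prox1, the transcription factor that keeps granule cell identity, stood at 88.8, 123.5 and 82.5 CPM, and the calcium buffer Calb1 at 83.1, 98.9 and 78.0 CPM. The 8 CA1 markers found, of 9 listed, summed to 1151, 1131 and 720.5 CPM, and the 8 markers of CA3 and mossy cells to 713, 778 and 593 CPM. Sham 3 was the lowest library for 9 of the 10 dentate markers and 7 of the 8 CA1 markers. It was the lowest for 5 of the 8 markers of CA3 and mossy cells and the highest for 2 of them. Of the 6 detected CA2 markers 3 were lowest in Sham 3 and 1 was highest there. For comparison, 33.0%, 31.7% and 35.3% of all detected genes were highest in Sham 1, Sham 2 and Sham 3, and 34.3%, 30.9% and 34.8% were lowest there.

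Per length, the oligodendrocyte list had the highest summed level of all lists, 6772 ± 1274 TPM over its 10 genes. That list summed to 8764, 8613 and 11738 CPM, and all 10 of its genes were highest in Sham 3. Mbp, a protein that compacts the myelin sheath, was at 4413, 3937 and 5210.1 CPM. The astrocyte list summed to 3930.4, 4457 and 3848 CPM, led by the glutamate transporter Slc1a2 at 2218, 2704 and 2205 CPM. Microglial markers summed to 436, 492 and 402 CPM, with 9 of 10 highest in Sham 2. Endothelial and pericyte markers summed to 392, 341 and 394 CPM.

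Sham 3 held more of many transcripts of midbrain dopamine neurons and of the brainstem than Sham 1 and Sham 2. The dopamine transporter Slc6a3 was at 0.453, 2.30 and 98.1 CPM. Th, which makes the dopamine precursor, was at 1.16, 1.40 and 42.9 CPM, and Ddc, the next enzyme, at 9.15, 8.49 and 53.8 CPM. The vesicular monoamine transporter Slc18a2 was at 5.43, 6.94 and 44.5 CPM and the nicotinic subunit Chrna6, typical of dopamine neurons, at 0.905, 0.449 and 13.98 CPM. Slc6a5, the glycine transporter of inhibitory brainstem and spinal neurons, was at 0.151, 0.0499 and 19.6 CPM. Of the serotonin neuron genes, Tph2 was at 0.955, 0.849 and 9.14 CPM, and the transporter Slc6a4 had 0, 2 and 121 counts. In each of these genes Sham 3 was the highest library, by more than the difference between the other libraries. A list of 15 midbrain dopamine genes, put together after these values were seen, summed to 147, 145 and 549 CPM, a list of 4 serotonin neuron genes to 1.96, 1.498 and 24.3 CPM and a list of 6 hindbrain genes to 6.69, 4.14 and 33.7 CPM. Of the 7 detected dopamine list genes 6 were highest in Sham 3, and the exception was Nr4a2 at 42.3, 19.9 and 24.9 CPM. Aldh1a1, at 73.8, 95.5 and 187 CPM, held most of that list's level in Sham 1 and Sham 2 together with Nr4a2. Hoxa5, a gene of the caudal hindbrain, had no count in any library, which allows a level of up to 0.151, 0.150 and 0.151 CPM if 3 counts are taken as the limit. The part of such tissue in the levels of Sham 3 was not tested, and every value below that is given as a mean ± SD includes Sham 3.

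Sham 2 stood apart in choroid plexus transcripts, and the libraries differed from one another in blood transcripts. Markers of the choroid plexus, the epithelium that makes cerebrospinal fluid, summed to 1899, 331 and 1482 CPM, and all 8 of the 10 that were detected were lowest in Sham 2. Ttr, which carries thyroid hormone in that fluid, was at 1171, 103 and 864 CPM. The 5 red blood cell genes summed to 141, 966 and 508 CPM, each lowest in Sham 1 and highest in Sham 2. Thalamus and habenula markers summed to 576, 412 and 642 CPM, with 9 of 10 lowest in Sham 2. Hypothalamic markers were low, with 2 of 10 detected and a sum of 6.54, 7.74 and 7.42 CPM, and the defining genes Oxt and Hcrt had at most 2 counts in any library. Of the 8 cerebellar markers 3 were detected, and the list summed to 185, 150.4 and 145 CPM. Calb1, given above, and Zic1, at 93.9, 46.9 and 52.4 CPM, made up most of that sum. The Purkinje cell gene Pcp2, at 0.302, 0.2 and 0 CPM, and the granule cell gene Gabra6, at 0.101, 0 and 0 CPM, were near 0 in every library, while Car8, at 4.83, 2.95 and 7.17 CPM, and En2, at 1.56, 0.699 and 5.10 CPM, were highest in Sham 3.

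**Figure D1:**
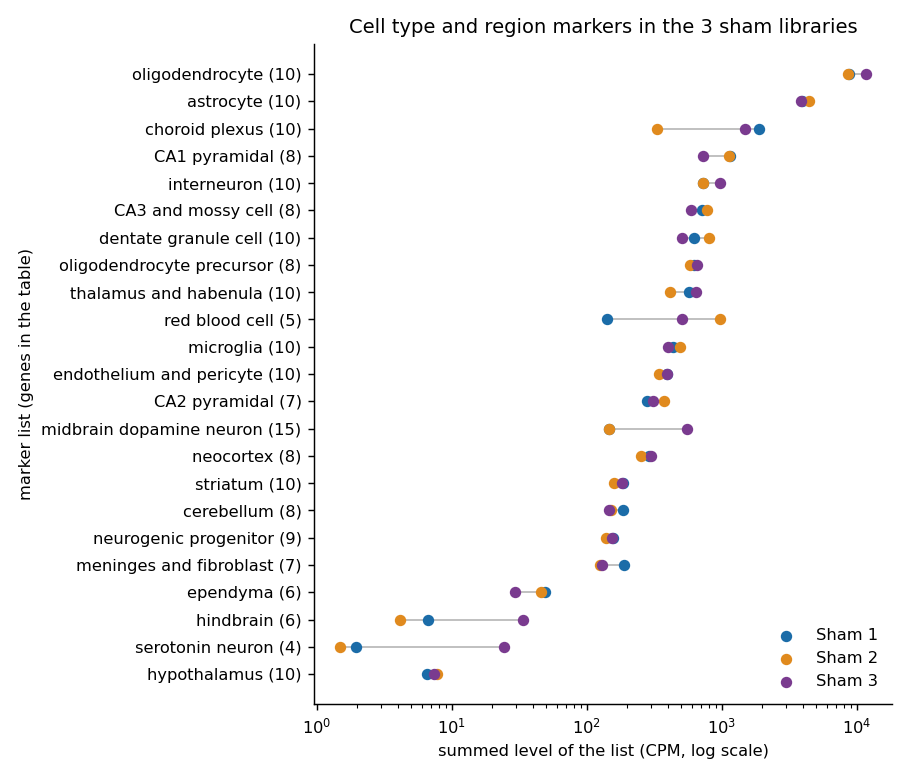
Summed level of each marker list in CPM on a log axis, with 1 point per sham library and the number of list genes in the table in brackets. Most lists lie within a narrow range, while the midbrain dopamine, serotonin and hindbrain lists are highest in Sham 3, the choroid plexus list is lowest in Sham 2 and the red blood cell list is lowest in Sham 1.

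Genes of the mitochondrial genome were the most abundant transcripts, but the counts of several were booked to nuclear copies. The mitochondrial genome encodes subunits of the respiratory chain and the RNAs of the mitochondrial ribosome. Chromosome 1 carries an inserted piece of it, and GENCODE M21 lists its genes there as unprocessed pseudogenes under Gm names. The transcripts of Gm28661, Gm28437, Gm10925 and Gm10222 were identical to those of mt-Co2, mt-Co3, mt-Atp6 and mt-Nd4l over the whole length of each copy, 294 bases for the shortest and 783 for the longest. Gm28438 differed from mt-Nd3 at 1 of 345 bases (T3C), and Gm29216 from mt-Co1 at 1 of 483 aligned bases (A1066T). Positions are counted from 1 at the 5′ end of the mitochondrial transcript. Gm29216 is 492 bases long, and the bases at its 5′ end that were not aligned to mt-Co1 are not compared here. Windows of 60 bases show how little separates the pairs, first where no base differs and then around each difference, which is in capitals.
mt-Co2: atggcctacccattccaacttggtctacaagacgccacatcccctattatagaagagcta
Gm28661: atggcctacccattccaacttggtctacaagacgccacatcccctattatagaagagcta
mt-Nd3: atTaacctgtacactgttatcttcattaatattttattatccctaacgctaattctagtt
Gm28438: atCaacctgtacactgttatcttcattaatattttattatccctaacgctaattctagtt
mt-Co1: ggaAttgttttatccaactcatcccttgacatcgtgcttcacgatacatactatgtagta
Gm29216: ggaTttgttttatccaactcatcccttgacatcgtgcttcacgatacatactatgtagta

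In the table, most counts of the identical pairs stood under the copy. For mt-Co2, which encodes a core subunit of cytochrome c oxidase, the gene was at 163, 91.7 and 172 CPM and its copy Gm28661 at 4754, 7092 and 6614 CPM, so that 96.7%, 98.7% and 97.5% of the pair's counts were under the copy. For mt-Co3 the gene was at 468, 446 and 262 CPM and Gm28437 at 4414, 7172 and 6475 CPM. For mt-Atp6, a subunit of the ATP synthase, the gene was at 258, 329 and 375 CPM and Gm10925 at 2405, 3770.1 and 3504 CPM. The copy of mt-Nd3, with 1 differing base, held 95.4%, 91.7% and 89.7% of that pair's counts. The reverse held for mt-Co1, whose copy covers only part of the gene: the copy held 2.65%, 1.69% and 2.21% of the pair's counts. Reads of an identical pair cannot be told apart, so the separate levels of these genes are uncertain and only the sums are given weight here. As sums, the pairs of mt-Co2 and mt-Co3 reached 6296 ± 1211 and 6412 ± 1397 CPM, below mt-Co1 with its copy at 16552 ± 3112 CPM. The mitochondrially encoded genes took 3.20%, 4.56% and 4.31% of all counts, and with the 6 copies 4.49%, 6.48% and 6.15%. On either count Sham 1 was the lowest library.

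**Figure D2:**
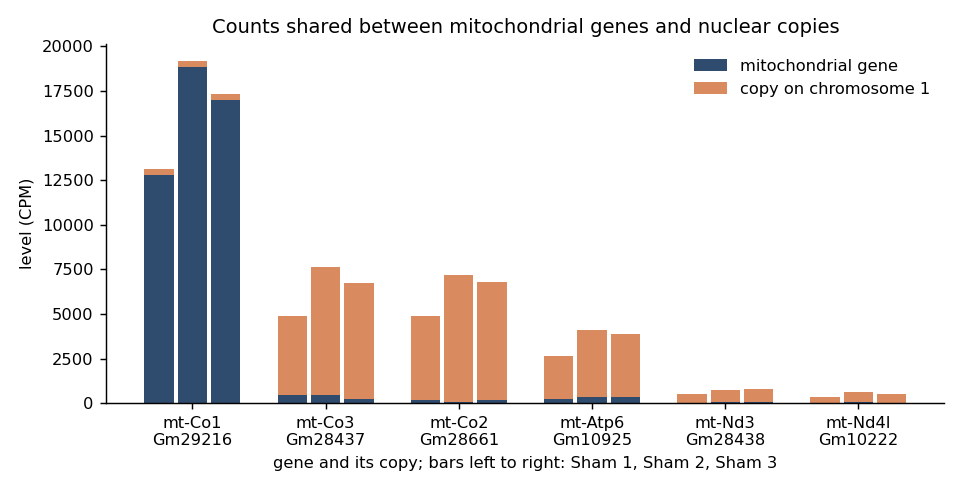
Level in CPM of 6 mitochondrial genes and of the copy of each on chromosome 1, stacked, with 1 bar per sham library. The copy takes nearly all of the counts in 5 of the pairs and a small part of them in the pair of mt-Co1.

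Of the 57010 genes, 28210 had no count in any sham library and 15070 were detected. The detected genes included 13564 protein-coding genes, 62.0% of the protein-coding genes in the table, and 302 genes classed as lincRNA. The mean level reached 10 CPM in 10551 detected genes, 100 CPM in 2254 and 1000 CPM in 77. No few genes dominated the libraries. The 10 most abundant genes took 5.84 ± 0.787% of the counts, the 100 most abundant 18.6 ± 0.916% and the 1000 most abundant 48.8 ± 0.891%, and 1067 genes together held 50% of the counts. The share of the 10 most abundant was lowest in Sham 1, at 4.94%.

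Per transcript length, mt-Co1 was the highest gene with a non-clone symbol, at 28261 ± 3980.4 TPM. As sums with their copies, the pair of mt-Co1 was at 30204 ± 3873 TPM, that of mt-Co2 at 24921 ± 3621, that of mt-Co3 at 22048 ± 3670.3 and that of mt-Atp6 at 14088 ± 2430.4 TPM. As separate genes, mt-Cytb was at 11433 ± 1909.8 and mt-Nd1 at 10680.0 ± 1675 TPM, and their difference was smaller than their spread. Genes with no length, such as Rn18s-rs5 at 2384, 2325 and 1131 CPM, were not ranked. The highest nuclear gene with a length and a non-clone symbol was Fth1, the heavy chain of the iron store ferritin, at 4068 ± 376 TPM. Eef1a1, the elongation factor that brings amino acids to the ribosome, was at 3720.2 ± 266 TPM, and the 2 again lay within their spread. Next came Apoe, the lipid carrier made by astrocytes, at 3181 ± 146 TPM, and Cpe, which trims peptide hormones, at 2928 ± 212 TPM. Calmodulin genes, the calcium sensors of the cell, were also among the 25 highest, with Calm2 at 2553 ± 273 and Calm3 at 2154 ± 229 TPM. So were the protease inhibitor Cst3 at 2540.3 ± 507 TPM and the glycolytic enzymes Gapdh at 2486 ± 127 and Aldoa at 2482 ± 268 TPM. Neuronal genes in this set included Camk2a, the synaptic kinase of memory research, at 2108 ± 617 TPM and Snap25, which fuses vesicles, at 1986 ± 162 TPM. Mbp at 2563 ± 427 and the matrix protein Sparcl1 at 2075 ± 380.0 TPM represented glia. Apoe varied little between libraries, with a CV of 2.57% in CPM, whereas Camk2a varied by 30.9% and was lowest in Sham 3 at 4138, 4912 and 2566 CPM. With the median transcript length in place of the longest, 13 of these 25 genes stayed among the highest 25.

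Glutamate receptors carry fast excitation through AMPA and kainate receptors, calcium entry through NMDA receptors, and slower signals through metabotropic receptors. All 4 AMPA subunits were detected. Gria1 led at 427 ± 82.0 TPM and took 60.6% of the family's level, above Gria2 at 153 ± 22.5, Gria3 at 87.9 ± 6.49 and Gria4 at 35.9 ± 11.8 TPM. With median lengths Gria2 led instead. By library Gria1 was at 905, 1038 and 679.9 CPM and Gria4 at 64.0, 53.8 and 97.8 CPM, and only Gria4 of the 4 was highest in Sham 3. All 12 auxiliary subunits were detected, led by Cnih2, which slows channel closing, at 447 ± 136 TPM, with Cacng8, a TARP of hippocampal pyramidal neurons, at 141 ± 38.1 TPM.

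The obligatory NMDA subunit Grin1 stood at 373 ± 72.5 TPM and took 67.0% of the family. Grin2a at 57.7 ± 11.6 and Grin2b at 55.3 ± 10.46 TPM lay within their spread of each other, and with median lengths Grin2b led the family. Of the 7 NMDA genes, Grin3b was the 1 not detected. In CPM, Grin2a was at 282, 401 and 256 and Grin2b at 482, 605 and 389, with the same order of libraries. Among the kainate receptors Grik5 led at 178 ± 47.5 TPM, and Grik4, enriched in CA3, was at 28.8 ± 6.75 TPM. Of the 8 metabotropic receptors 7 were detected. Grm5 led at 57.6 ± 3.85 TPM, and Grm2, Grm3 and Grm7 lay between 29.6 and 33.5 TPM, within their spread. Grm2, a marker of granule cells, differed most between libraries of these, at 76.3, 59.9 and 37.4 CPM.

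Glutamate is packed into vesicles by Slc17a7 and Slc17a6 and cleared by the Slc1a family. Slc17a7, the transporter of cortical and hippocampal neurons, was at 1337, 1304 and 685 CPM, and Slc17a6, that of thalamus and brainstem, at 66.8, 37.2 and 129 CPM. Sham 3 was thus the lowest library for the first and the highest for the other. The astrocyte transporters Slc1a2 and Slc1a3 stood at 554 ± 41.1 and 328 ± 61.9 TPM.

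GABA-A receptors, the chloride channels of fast inhibition, had 12 of 19 subunits detected. Gabra5, a subunit of extrasynaptic receptors abundant in hippocampus, was at 128 ± 29.4 TPM. By library it was at 119.9, 164 and 96.7 CPM, lowest in Sham 3. The GABA-making enzymes Gad1 and Gad2 were at 266, 261 and 355 and 93.2, 94.6 and 213 CPM, and the astrocyte transporter Slc6a11 at 259, 230.1 and 508 CPM, each highest in Sham 3. The GABA-B receptor gene Gabbr1 varied less, at 844, 731 and 807 CPM. Of the interneuron class markers, somatostatin, Sst, was at 99.7, 124 and 75.1 CPM and parvalbumin, Pvalb, at 23.1, 38.0 and 59.8 CPM, with opposite extremes in Sham 3. The glycine receptor genes were led by Glrb at 108, 120.1 and 166 CPM, and Glra1, the alpha subunit of brainstem and cord, was at 0.302, 0.3 and 5.75 CPM.

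**Figure D3:**
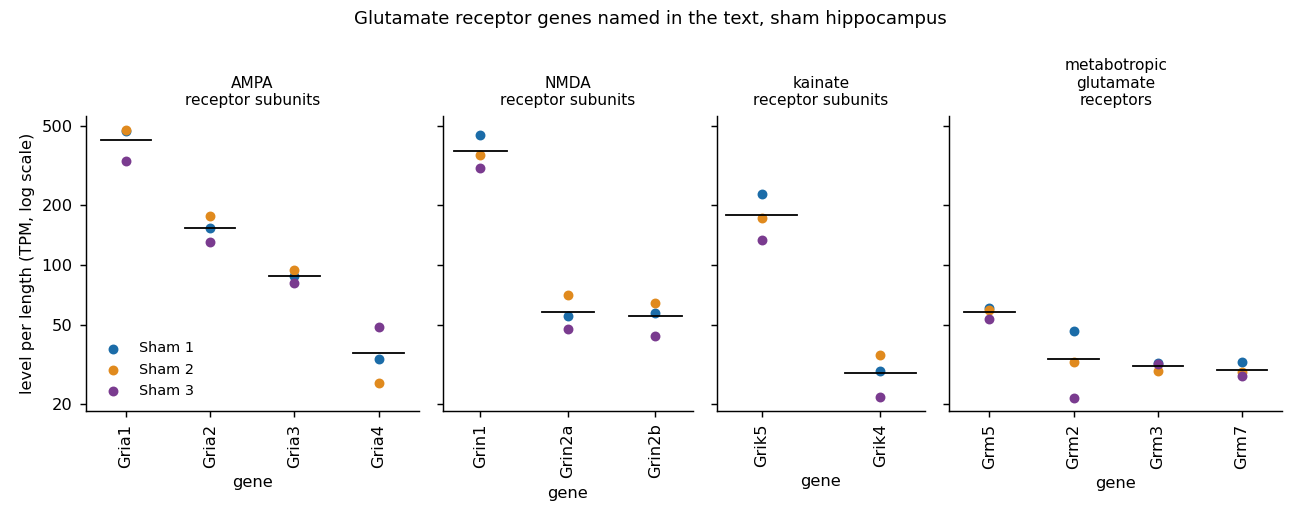
Level per transcript length (TPM, log axis) of the AMPA, NMDA, kainate and metabotropic glutamate receptor genes named in the text, with 1 point per sham library and a bar at the mean. Gria1 and Grin1 stand above the other genes of their panels in every library, while the points of Grin2a and Grin2b overlap.

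As family sums, receptors of the modulatory transmitters were lower than those of glutamate and GABA. Their summed levels per length ran from 19.4 ± 3.96 TPM for dopamine to 157 ± 21.97 TPM for adenosine, against 205 ± 24.0 TPM for the metabotropic glutamate and 725 ± 29.1 TPM for the GABA-A receptors. The families differ in number of genes, and single genes could go the other way. Adora1, with 93.9% of the adenosine sum, was above Grm5, with 28.1% of the metabotropic glutamate sum. Of 14 serotonin receptor genes 10 were detected. Htr1a, the main inhibitory serotonin receptor of pyramidal neurons, was at 30.4, 30.7 and 25.03 CPM, and Htr2c, which the choroid plexus also expresses, at 43.9, 30.2 and 94.2 CPM. The adrenergic family was led by Adra1d at 49.5, 49.8 and 26.2 CPM. The dopamine receptors were scarce, with Drd5 at 10.4, 14.7 and 9.09 CPM, Drd1 at 3.72, 3.34 and 2.83 CPM and Drd2 at 3.77, 2.65 and 12.4 CPM, the last again highest in Sham 3. The muscarinic receptor Chrm1 of pyramidal neurons was at 216, 242 and 126 CPM and took 63.4% of its family's length-scaled level. Chrm2 had the opposite order, at 8.20, 8.04 and 25.1 CPM. Of the nicotinic subunits Chrnb2 was at 96.3, 78.5 and 95.8 CPM and Chrna7, which forms receptors on its own, at 13.5, 18.4 and 12.9 CPM. The adenosine receptor Adora1, a brake on transmitter release, was at 281, 303 and 225 CPM and took 93.9% of its family. The histamine autoreceptor gene Hrh3 was at 64.6, 42.4 and 48.2 CPM, and Hrh4 had no count.

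Neuropeptide precursors were dominated by Cck at 546 ± 144 TPM and Sst at 374 ± 82.2 TPM, with Cck the higher in each library. Npy followed at 79.3 ± 21.3 TPM and Penk, the enkephalin precursor, at 39.5 ± 9.89 TPM. In CPM, Cck was at 156, 213 and 117, Npy at 16.4, 21.7 and 11.8 and Penk at 19.2, 17.3 and 26.8. Cck, Sst and Npy had the same order of libraries, with Sham 2 highest, and Penk had Sham 2 lowest. Of the 4 opioid receptor genes the nociceptin receptor Oprl1 led at 45.0, 39.6 and 67.2 CPM, with Oprd1 at 8.70, 6.44 and 6.21, Oprk1 at 3.22, 0.998 and 8.18 and the mu receptor Oprm1 at 0.805, 0.499 and 0.959 CPM. Of these Oprl1 and Oprd1 passed the detection threshold.

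The endocannabinoid system, on which cannabidiol research has centred, had 10 of 11 genes detected. All 10 were lowest in Sham 3, against 34.8% of all detected genes, or 9 of 10 with no scaling beyond the library total. The receptor Cnr1, which cuts transmitter release, was at 115, 136 and 97.4 CPM. Faah, which breaks down anandamide, was at 161, 184 and 111 CPM. For 2-arachidonoylglycerol, the synthetic enzyme Dagla was at 209, 206 and 126 CPM and the degrading enzymes Mgll and Abhd12 at 206, 188 and 131 and 197, 208 and 190.1 CPM. Abhd12 was the highest of the family per length at 269 ± 13.0 TPM. The heat and capsaicin receptor Trpv1, a proposed target of cannabidiol in sensory neurons, had 2, 2 and 2 counts.

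Corticosteroids reach the hippocampus through 2 receptors, the mineralocorticoid receptor Nr3c2 and the glucocorticoid receptor Nr3c1. Nr3c2 was at 62.1 ± 11.5 TPM and Nr3c1 at 30.3 ± 2.93 TPM, so that Nr3c2 was higher per length in every library, at 68.5, 69.0 and 48.8 against 32.3, 27.0 and 31.7 TPM. The steroid-induced genes were led by the metallothioneins Mt2 and Mt1 at 64.7, 136 and 107 and 119.8, 233.6 and 171 CPM, lowest in Sham 1 and highest in Sham 2. Fkbp5, a chaperone that dampens the receptor, was at 67.0, 89.7 and 58.5 CPM and Sgk1 at 168, 129 and 176 CPM. Among neurotrophins Bdnf was at 29.7, 42.5 and 26.2 CPM, and its receptor Ntrk2 was higher per length, at 165 ± 16.5 against 20.7 ± 4.48 TPM. Sort1, a sorting receptor for proneurotrophins, was at 218 ± 28.9 TPM.

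Ion channel families differed in how evenly they were expressed. The 40 voltage-gated potassium alpha subunit genes, 33 of them detected, summed to 2763, 2724 and 2684 CPM, a CV of 1.46%, although the median CV of the detected members was 15.9%. The two-pore potassium channels behaved likewise, with sums of 312, 307 and 313 CPM. Kcna2, an axonal channel, was at 191, 194 and 304 CPM and Kcnh3 at 119, 87.2 and 50.3 CPM, the first highest and the other lowest in Sham 3. The inward rectifier Kcnj10 of astrocytes was at 237, 213 and 348 CPM.

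Sodium channels summed to 1585, 1709.8 and 1642 CPM. Per length, the alpha subunits Scn8a and Scn2a were at 84.0 ± 8.07 and 65.4 ± 4.87 TPM, and with median lengths Scn8a led the family. Scn1a, the alpha subunit of fast-spiking cells, was at 106, 106 and 199 CPM and the beta subunit Scn4b at 46.2, 37.8 and 146 CPM, both highest in Sham 3. The pore-forming calcium channel subunits summed to 1448, 1355 and 1087 CPM. Of the 8 detected, 7 were lowest in Sham 3, against 34.8% of all detected genes. The 7 included Cacna1e, the R-type channel, at 427, 465 and 328 CPM. The gabapentin-binding subunit Cacna2d1 was at 133, 178 and 134 CPM. Of the pacemaker channels Hcn2 took 84.7% per length, at 144 ± 39.3 TPM. The TRP channels were low throughout, with Trpm3 at 29.4 ± 5.25 TPM as the highest by mean. The highest TRP gene was not the same in all libraries, and with median lengths Trpm7 led.

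The release machinery was steadier between libraries than the postsynaptic density, with CVs of the summed CPM of 5.69% for SNARE proteins and 20.3% for scaffolds. SNARE proteins and complexins summed to 5663, 6324 and 6158 CPM, and synapsins with vesicle proteins to 4052, 4193 and 3817 CPM. Snap25, Vamp2 and Syp were at 1345, 1638 and 1679, 677, 739.9 and 589 and 1289.8, 1522 and 1248 CPM. The vesicle SNARE Vamp1, common in brainstem, was at 184, 195 and 498 CPM. The synaptotagmins, the calcium sensors of release, were led by Syt1 at 1036, 1153 and 900.0 CPM, and Syt2 stood at 38.1, 34.7 and 201 CPM. Both Vamp1 and Syt2 were highest in Sham 3. The 15 postsynaptic scaffold genes summed to 4772, 4297 and 3162 CPM, and 14 of the 15 were lowest in Sham 3, against 34.8% of all detected genes. Dlg4, which encodes PSD-95, was at 855, 739 and 582 CPM and Shank1 at 909, 707 and 542 CPM. CaM kinases summed to 5799, 6752 and 3899 CPM, of which Camk2a took 65.9% per length. Camk2b was at 1378, 1607 and 1000.4 CPM. Hpca, a calcium sensor named for the hippocampus, was at 1092, 1838 and 832 CPM. Adenylyl cyclases were led by Adcy1 at 1127, 1314 and 805 CPM. In Dlg4, Shank1, Camk2b, Hpca and Adcy1 alike Sham 3 was the lowest library, and Sham 2 was the highest in all but Dlg4 and Shank1.

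Ribosomal proteins, at 37193 ± 4900.4 TPM, and glycolytic enzymes were the highest nuclear families in summed level per length. The alpha and beta tubulins were at 6332 ± 481 TPM in sum, and Tuba1a varied by 1.07% at 926, 944 and 942 CPM. Actb and Actg1, the cytoplasmic actins, were at 1449 ± 189.6 and 1359.9 ± 126 TPM, within their spread, though Actb was the higher in each library. The glycolytic enzymes, 20 of 21 detected, were at 14373 ± 558 TPM in sum, and their summed CPM of 10709, 10873 and 10807 had a CV of 0.762%. The neurofilament genes Nefm and Nefh of thick axons were at 273, 295 and 528 and 122.8, 101 and 269 CPM, highest in Sham 3.

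Ribosomal proteins and nuclear-encoded respiratory chain subunits moved together between the libraries. The 86 ribosomal protein genes, 81 of them detected, summed to 10486, 14836 and 12325 CPM, and 75 of the 81 were lowest in Sham 1 and 76 highest in Sham 2. The 37 nuclear subunits of complex I summed to 2156, 2876 and 2707 CPM, and all 37 were lowest in Sham 1. Cytochrome c oxidase subunits summed to 1455, 2127 and 1832 CPM, with 12 of 13 detected genes lowest in Sham 1, and 33 of 37 proteasome genes were also lowest there. Over all detected genes 34.3% were lowest in Sham 1. Examples are Rplp1 of the ribosomal stalk at 267, 422 and 315 CPM, Ndufa4 at 125, 179 and 182 CPM and the actin-binding thymosin Tmsb4x at 423, 694 and 492 CPM. These transcripts are short, and the log2 difference of Sham 2 from Sham 1 fell with transcript length across 14899 detected genes (Spearman rho -0.21, across genes, which are not independent). Its median was 0.17 in the shortest 20% of genes and -0.03 in the longest 20%. The part of transcript length in these families was not tested.

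Adhesion and guidance families differed in how many members were detected. All 29 semaphorin and plexin genes were detected, 56 of the 58 clustered protocadherins and 20 of the 22 Eph receptors and ephrins. Of the classical cadherins 19 of 23 were detected, of the claudins, which seal tight junctions, 7 of 24, and of the aquaporin water channels 3 of 11. The protocadherins were led by Pcdhgc5 at 80.3 ± 22.05 and Pcdhgc3 at 77.4 ± 18.8 TPM, within their spread. These genes share 3′ exons within a cluster, so their counts may be split unevenly. Epha4, a receptor on hippocampal spines, was at 271, 367 and 225 CPM. Nlgn2, the neuroligin of inhibitory synapses, was at 363, 295 and 280.4 CPM.

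Activity-regulated genes are induced within minutes when neurons fire. Of 22 immediate early genes 21 were detected, and 17 of the 21 were lowest in Sham 3, against 34.8% of all detected genes. Arc, which regulates AMPA receptor uptake, was at 68.9, 62.8 and 50.4 CPM, Egr1 at 88.5, 77.4 and 59.2 CPM and Fos at 7.84, 4.84 and 7.32 CPM. Per length Jund led at 180.2 ± 41.4 TPM. Among neuronal transcription factors Neurod6 and Neurod2 of pyramidal neurons were at 98.3, 136 and 76.0 and 125, 132 and 67.1 CPM. The clock genes, all 18 detected, summed to 1522, 1398 and 1422 CPM, with Tef at 399.8, 359.9 and 355 and Dbp at 69.2, 63.5 and 69.6 CPM. No Hox gene, which pattern the hindbrain and cord, was detected of 39, and 23 had no count.

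Immune genes known from resting microglia were detected, while inflammatory cytokines were near the floor. The complement genes C1qa, C1qb and C1qc were at 39.6, 47.4 and 36.4, 40.8, 47.5 and 35.1 and 40.3, 38.9 and 35.2 CPM. B2m, the light chain of MHC class I, was at 76.0, 132 and 108 CPM, and Cd74, the class II chaperone, at 3.32, 6.39 and 5.15 CPM. Of 36 interleukin genes 5 were detected, led by the alarmin Il33 at 56.4, 62.8 and 99.5 CPM. The inflammatory cytokine Il1b had 2, 3 and 0 counts, and Tnf had 0, 0 and 3. Of 38 chemokine genes 8 were detected, led by the neuronal ligand Cx3cl1 at 468, 429 and 324 CPM. Aif1, which encodes the microglial marker IBA1, was at 4.12, 6.84 and 4.44 CPM, and Gfap, the astrocyte filament, at 435, 449 and 339 CPM. Interferon-induced genes summed to 455, 420.2 and 567 CPM. Of the 23 detected, 17 were highest in Sham 3, against 35.3% of all detected genes. Ifit3, 1 of the 17, was at 35.9, 32.2 and 69.6 CPM.

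Of most families typical of other tissues few members were detected, against 26.4% of all genes and 62.0% of protein-coding genes in the table. Of 1413 olfactory receptor genes 34 were detected and 1118 had no count, and of 358 vomeronasal receptor genes 21 were detected. Over their many members these families summed to 205, 212 and 203 CPM and 109, 114 and 102 CPM. Of 54 keratins 8 were detected, with a sum of 83.7, 86.5 and 81.5 CPM. Of 15 muscle myosins and troponins 4 were detected, near the share of all genes, with a sum of 44.1, 42.5 and 45.2 CPM. None of the 58 keratin-associated protein genes, 42 beta defensins, 22 major urinary protein genes or 524 immunoglobulin and T cell receptor variable segments was detected. Of 12 haemoglobin genes 4 were detected, above the share of all genes but below that of protein-coding genes. Their family summed to 139, 954 and 499 CPM.

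Long noncoding RNAs of the brain held large counts. Meg3, expressed from the maternal allele, was at 6788, 5419.9 and 6932 CPM, the second gene by count among those with a non-clone symbol when the nuclear copies are counted apart, and Snhg11 and Malat1, a nuclear RNA, were at 1993, 1703 and 2025 and 2135, 2102 and 1659.8 CPM. Of 23 imprinted protein-coding genes 22 were detected, and 15 of the 22 were highest in Sham 3, against 35.3% of all detected genes. Peg3 was at 404, 328 and 577.9 CPM and Nap1l5 at 239, 199 and 489.7 CPM.

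The spread between sham libraries was small for most genes. The median CV of the 15070 detected genes was 12.7%, with quartiles of 7.70% and 19.7%, while counting error alone would give a median of 4.60%. The common biological coefficient of variation from edgeR, which removes counting error, was 0.173 over 16493 genes. It was 0.149 without Sham 3, 0.178 without Sham 2 and 0.187 without Sham 1. The median CV fell from 18.1% in genes of 1 to 10 CPM to 11.01% in genes of 10 to 100 CPM and was 13.1% in the 77 genes of 1000 CPM or more, where counting error is 0.562%. A CV above 50% was found in 226 detected genes, and 146 of these were highest in Sham 3 and 139 lowest in Sham 2. The number of such genes depended on the libraries, with 400 without Sham 1, 295 without Sham 2 and 185 without Sham 3. Those counts rest on a CV over 2 libraries, which is less certain, so they are not fully alike the 226 from 3 libraries. Between pairs of libraries, 229 genes differed by over 2-fold between Sham 1 and Sham 2, 355 between Sham 1 and Sham 3, and 503 between Sham 2 and Sham 3.

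**Figure D4:**
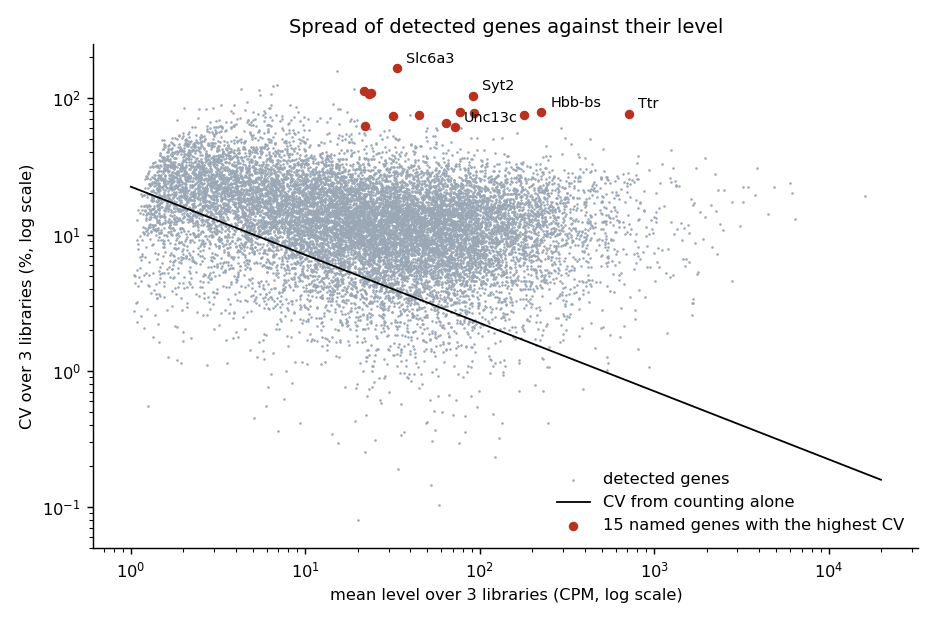
CV over the 3 sham libraries (%) against mean level (CPM), both on log axes, for every detected gene, with the CV that counting alone would give as a line. Most genes lie above the line. In red are the 15 named genes with the highest CV among those with a mean of at least 20 CPM, whose CVs run from 61.5% to 166%, and of these Slc6a3 was below the detection threshold in Sham 1.

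The 15 named genes of highest CV, among 7996 with a mean of at least 20 CPM, fell into 3 patterns. The first was highest in Sham 3: Slc6a3, Ret, Ddc, Dlk1, Syt2, Scn4b, Baiap3, Vat1l, Cd83 and Unc13c. Ret, a receptor for glial neurotrophic factors, was at 8.90, 6.24 and 49.7 CPM, and Dlk1, a Notch-related ligand, at 9.55, 8.24 and 51.9 CPM. The next was the globins Hbb-bs at 59.8, 413 and 204, Hba-a1 at 21.97, 166 and 91.2, Hba-a2 at 48.8, 321 and 172 and Hbb-bt at 8.40, 55.3 and 31.9 CPM, all lowest in Sham 1 and highest in Sham 2. These are close paralogs, so their counts may be split between copies. Ttr alone was lowest in Sham 2 and highest in Sham 1. The 10 genes of lowest CV included Tgfbr3 at 20.2, 20.2 and 20.1 CPM, a coreceptor for TGF-beta, Msn at 33.9, 33.9 and 34.0 CPM, which links actin to the membrane, and Puf60 at 129, 129 and 129 CPM, a splicing factor. Their CVs of 0.0805% to 0.338% lay below what counting alone would give, such as 4.99% for Tgfbr3. Of all detected genes 13.5% had a CV below their counting CV.

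**Figure D5:**
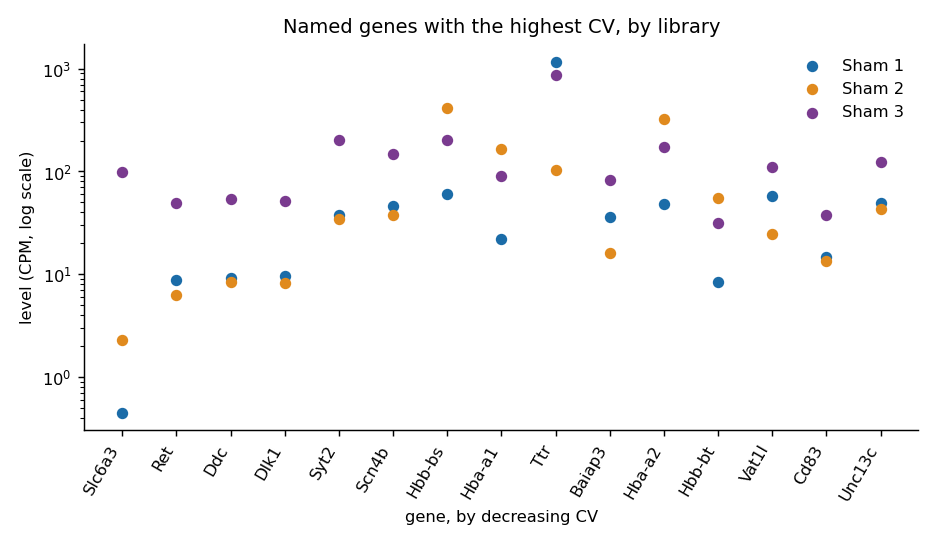
Level (CPM, log axis) of the 15 named genes with the highest CV, with 1 point per sham library. In 10 genes Sham 3 is the highest point, in the 4 globins Sham 2 is, and in Ttr Sham 1 is. Of the 10, Slc6a3, Ret, Ddc, Dlk1 and Cd83 reach the mean of 20 CPM only through Sham 3.

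Promoter letters were compared with level and spread. RefSeq promoters (GRCm38.p6), from 250 bases before to 50 after the start, were found for 11098 detected genes, as 14288 promoters. TATAAA, the core of the TATA box, lying wholly between 40 and 20 bases before the start on the gene's strand, was held by 0.959% of them, against 1.87% of all 32851 promoters in the table. With promoters split into 3 equal sets by CV, the share was 0.630%, 0.672% and 1.57% from the lowest to the highest set, and by level per length it was 1.36%, 0.735% and 0.777%. GGGCGG, a letter match of Sp factors, on either strand anywhere in the window, was in 60.8% of promoters of detected genes against 35.7% of all. Its share was 63.4%, 62.3% and 56.8% from the lowest to the highest set by CV. TGACGTCA, the letters bound by CREB, on either strand, was in 2.90% against 1.79% of all. CCAAT on either strand was in 37.4% of both. None of the 4 motifs contains another. The 60 bases before the start are shown for Hbb-bt (CV 73.6%) and Agt (CV 42.7%), with TATAAA in capitals. Hbb-bt and Agt had the highest CV of the named genes with TATAAA in a search that left out a single chromosome. They need not be the highest of all such genes. Beside them stands Hbb-bs, a paralog of Hbb-bt without these letters and with a CV of 78.6%. Agt, the angiotensin precursor made by astrocytes, was chosen after its values were seen.
Hbb-bt: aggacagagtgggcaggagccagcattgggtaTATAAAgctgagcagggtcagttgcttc
Agt: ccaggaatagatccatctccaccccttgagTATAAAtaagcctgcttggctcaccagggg
Hbb-bs: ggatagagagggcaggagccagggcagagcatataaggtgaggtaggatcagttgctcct
They lie on the minus strand at chr7:103813924-103813983 for Hbb-bt, chr8:124569707-124569766 for Agt and chr7:103827929-103827988 for Hbb-bs in GRCm38.p6, a build other than that of the counts. A match is a description of letters, not of a site in use.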

How the data were processed

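Total RNA from hippocampal tissue was sequenced with a SMARTer mRNA-seq kit, per the labels' protocols. The authors deposited expected counts per gene from RSEM on GRCm39, per the submitters' processing notes, and the version is not given in the sources used here. Only the 3 Sham columns were used. Expected counts were rounded to whole numbers. They were divided by TMM-scaled totals (edgeR 4.0.16, R 4.3.3) to give CPM, and DESeq2 1.42.0 gave alternative size factors. RSEM splits reads of similar genes between them by estimation, so near-identical copies are uncertain. TPM was computed from the longest protein-coding transcript of GENCODE M21 (GRCm38), which has a length for 98.9% of detected genes. That build differs from the deposited one, so it served only for lengths, gene classes and sequences. Copies were aligned with blastn 2.17.0. The CV and the edgeR estimate were checked on simulated data. Detection meant at least 1 CPM in all 3 libraries. No differences between groups were tested, and limits for counts of 0 cover counting error only.

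Named were the 25 genes with the highest TPM, the 15 with the highest and 10 with the lowest CV at a mean of at least 20 CPM, all with symbols that are not clone names, up to 5 members of each of 88 families by TPM with members the tissue is known by, the markers of 20 lists and a set of anchors. Some genes that this rule names are not reported here. Hpca, Vamp1, Agt, Rn18s-rs5, the genes of the X and Y chromosomes, the nuclear copies and 3 further marker lists were chosen after values were seen. The lists were chosen with earlier results of these data known. The protein sequences planned for were not used here.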

Additional observations from a re-analysis of the deposited data

How the results depend on the processing

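The number of detected genes ranged from 15070 to 16577 with thresholds of 0.5 CPM or 10 expected counts, other scaling, or 1 library left out, against 15070 as reported. With either other scaling, all 176 recomputed sums over the 88 families and all 150 recomputed levels of the 75 named genes moved by less than 1 standard deviation between libraries. Leaving out 1 library moved the mean of 3 families and 19 named genes by over 1.5 times. The haemoglobins fell from 531 to 319 CPM without Sham 2, the 4 named globin genes fell by over 1.5 times with it, and the other families, Hox genes and major urinary proteins, were near 0 in all libraries, as were Tnf and Il1b. Without Sham 3, Slc6a3 was at 1.37 rather than 33.6 CPM, Ret at 7.57 rather than 21.6, Ddc at 8.82 rather than 23.8 and Syt2 at 36.4 rather than 91.2 CPM, and Dlk1, Scn4b, Baiap3, Vat1l, Cd83, Unc13c, Vamp1, Drd2 and Slc6a4 also fell by over 1.5 times. Without 1 library, 1044 to 1092 genes held 50% of the counts, the mitochondrial share was 3.76% to 4.44%, and the common biological coefficient of variation was 0.149 to 0.187. Division by length changed more. Per length, 628 genes rather than 1067 held 50% of the total and the mitochondrial share was 8.97% rather than 4.03%. Counted without length, it was 5.71% with the nuclear copies, an alternative added after seeing the data. With the median transcript length, 13 of the 25 highest genes stayed among the 25 highest, and 50 of the 82 families with 2 or more detected members kept their leading gene, so the order of members depends on the transcript model. Of 150 recomputed CVs of named genes, 16 moved by more than the spread of their leave-one-out values. The counts of members highest or lowest in a library moved by at most 1 in any family or marker list under DESeq2 size factors and by at most 7 with no scaling beyond the library total. In the latter case the share of all detected genes lowest in Sham 2 rose from 30.9% to 37.4%. No paired analysis was possible because a single group was described and no test was made. With 3 libraries, the spread itself is loosely estimated. In libraries of this depth, 3 counts correspond to 0.150 to 0.151 CPM, and genes below 1 CPM were not ranked.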
